A study of Mus musculus with 131 samples.

Results

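The 2615 neutrophil-only undermethylated tiles were 100 bp windows of the genome in which DNA methylation was low in neutrophils but high in fat and in adult hepatocytes. They were taken from reduced representation bisulfite sequencing (RRBS), which reads cytosine methylation at CpG-rich restriction fragments, as tiles whose neutrophil value lay at least 50 percentage points below both the fat value and the mean of 6 control hepatocyte samples. Of 375549 tiles with a value in all of these samples, 0.696% met the rule. All mice were C57Bl. The neutrophils were 1 library from a 36 week old wild-type mouse and the fat was 1 library from a 25 week old wild-type mouse, so that neither tissue had a replicate, and no other blood cell type was compared. The control hepatocytes came from 15 week old mice labelled wild-type that had received an adeno-associated virus (AAV8) carrying Cre under the hepatocyte promoter Tbg at 1 day of age (n = 3) or at 3 weeks of age (n = 3). Hepatocytes of 5 further kinds did not enter the rule: wild-type at 3 weeks of age (n = 2), Tet2/Tet3 double knockout (DKO) at 15 weeks of age after injection of the same virus into floxed mice at 1 day (n = 2) or at 3 weeks (n = 2), InsR KO, in which floxed insulin receptor alleles were removed with Cre virus after birth (n = 2), and newborn liver cells, labelled 1 week, kept in vitro as a culture (n = 2). Whole-genome bisulfite sequencing (WGBS) gave 1 library each for newborn hepatocytes (labelled 1 week), adult wild-type and adult DKO hepatocytes (both 15 weeks, the DKO injected at 1 day). Histone mark libraries also came from 15 week old wild-type and DKO mice, the DKO injected at 1 day. Accessible chromatin (ATAC-seq) and HNF6 binding were read in wild-type and knockout liver (n = 2 each), whose labels name neither age nor deleted genes. For ATAC-seq the paper names adult hepatocytes, wild-type or deficient in Tet2/Tet3 from 1 day. The 5-hydroxymethylcytosine library came from hepatocytes at 20 days of age, with no genotype in its label. RNA libraries came from wild-type mice at 1 week (n = 1), 3 weeks (n = 3) and 15 weeks (n = 3), whose labels name no injection. Further RNA at 15 weeks came from controls injected at 1 day (n = 3) or 3 weeks (n = 3). The DKO RNA, also at 15 weeks, followed injection at 1 day (n = 3) or 3 weeks (n = 2).

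DNA methylation at enhancers and promoters is removed as cells take on an identity, and each cell type keeps its own set of undermethylated elements. TET2 and TET3 are enzymes that oxidise methylated cytosine and so start its removal. Neutrophils are granulocytes made in the bone marrow. Their precursors rely on transcription factors of the ETS, RUNX and C/EBP families, and they carry granule proteases, adhesion integrins and an NADPH oxidase. The hepatocytes isolated in vivo were perfused and sorted by size and absence of the leukocyte antigen CD45, whereas the cultures were started from unsorted liver cells. In bulk samples such as these, fewer cells of a type and a lower value per cell cannot be told apart.

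The windows that carry the comparisons are printed first, with every CpG in capitals, from the plus strand of mouse build mm9 (NCBIM37), 5′ to 3′. The first 5 lay at promoters or in introns of leukocyte genes. The Cebpe window at chr14:55331001-55331100 spanned the start of the gene for C/EBPε, a factor of late granulocyte maturation, and the Itgal window at chr7:134439901-134440000 that of the integrin αL chain. The Ptpn6 window at chr6:124682701-124682800 was in the promoter of a phosphatase of blood cell signalling, the Dock2 window at chr11:34597201-34597300 in that of a leukocyte Rac activator, and the Lsp1 window at chr7:149647601-149647700 in an intron of a leukocyte F-actin binding protein.
Cebpe promoter: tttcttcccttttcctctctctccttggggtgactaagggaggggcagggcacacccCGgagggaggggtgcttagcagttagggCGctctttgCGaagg
Itgal promoter: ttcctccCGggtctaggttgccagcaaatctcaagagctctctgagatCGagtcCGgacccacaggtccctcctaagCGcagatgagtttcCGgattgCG
Ptpn6 promoter: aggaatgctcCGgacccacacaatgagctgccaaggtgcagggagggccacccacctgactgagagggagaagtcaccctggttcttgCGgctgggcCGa
Dock2 promoter: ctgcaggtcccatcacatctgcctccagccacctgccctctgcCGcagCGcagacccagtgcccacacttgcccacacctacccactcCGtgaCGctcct
Lsp1 intron: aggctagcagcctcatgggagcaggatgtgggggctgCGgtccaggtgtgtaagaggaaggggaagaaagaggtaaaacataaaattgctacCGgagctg
The intronic windows of Fli1 at chr9:32324501-32324600, an ETS factor, and of Il1r2 at chr1:40148601-40148700, the decoy receptor for interleukin 1, hold the letters TGTGGT or their complement, and the Lsp1 window above holds GAGGAA or its complement.
Fli1 intron: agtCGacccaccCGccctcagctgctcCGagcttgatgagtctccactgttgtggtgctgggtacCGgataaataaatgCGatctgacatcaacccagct
Il1r2 intron: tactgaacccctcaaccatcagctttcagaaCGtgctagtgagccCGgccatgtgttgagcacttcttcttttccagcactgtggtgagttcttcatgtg
The last pair were tiles that differed between hepatocyte samples. Fzd5, which encodes a Wnt receptor, held a window in its coding exon at chr1:64781401-64781500, and Patz1, which encodes a zinc finger factor, held a window in its promoter at chr11:3191401-3191500.
Fzd5 coding exon: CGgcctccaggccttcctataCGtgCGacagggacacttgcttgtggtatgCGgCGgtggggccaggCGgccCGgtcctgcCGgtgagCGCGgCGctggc
Patz1 promoter: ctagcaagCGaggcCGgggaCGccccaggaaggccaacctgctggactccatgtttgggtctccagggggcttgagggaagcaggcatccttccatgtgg

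The tiles were chosen by their neutrophil, fat and control values, which are given here as a description. Neutrophil methylation averaged 11.2% over the 2615 tiles, with a median of 7.32%, against 77.7% in fat and 88.0% in the controls. The neutrophil value was 0 in 519 tiles, below 10% in 1542 and below 20% in 2033, whereas the controls were at 80% or above in 2125 tiles and fat in 1197. The tiles were therefore nearly unmethylated in the neutrophil library and most of them highly methylated in hepatocytes, with fat in between. The 272 tiles that passed by less than 2 points averaged 15.7% in neutrophils, 68.7% in fat and 84.6% in controls, and the 233 tiles that missed by less than 2 points averaged 18.2%, 68.9% and 85.2%. Adjacent tiles merged into 2084 regions, of which 1630 were a single tile and the longest held 5, and each autosome listed held between 62 and 231 tiles. For comparison, the same rule found 6719 tiles low only in fat and 4710 low only in hepatocytes, and a further 207299 tiles were at 50% or above in fat and controls without being low in neutrophils. These last are called the other methylated tiles. Of the tiles at 50% or above in both fat and controls, the neutrophil-only tiles made up 1.25%.

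The tiles lay mostly inside genes and away from promoters. Introns held 42.3% of them, against 30.8% of the other methylated tiles, intergenic sequence 34.7% against 51.5%, and coding exons 11.1% against 11.3%. Promoters were taken as 1000 bp before to 100 bp after the start of any annotated transcript, coding or not. They held 7.88% of neutrophil-only tiles, against 3.92% of other methylated tiles, 4.99% of fat-only tiles and 19.7% of all comparable tiles. The median distance to the nearest protein-coding start was 12.6 kb, against 23.3 kb for fat-only and 30.2 kb for other methylated tiles. Neutrophil-only and other methylated tiles had the same median of 3 CpGs and of 53.0% G and C. The former thus lay nearer to start sites than the latter at like base composition. Hepatocyte-only tiles were placed much like the neutrophil-only tiles. They had 7.90% in promoters, 44.5% in introns, 31.7% in intergenic sequence and a median distance of 10.7 kb.

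Short sequences that the rule did not use were more frequent in the neutrophil-only tiles. The letters GAGGAA, the core bound by ETS factors such as PU.1, were searched on both strands and stood in 510 tiles, 19.5% (95% Wilson interval 18 to 21.1%), against 9.91% of fat-only, 7.32% of hepatocyte-only, 7.56% of other methylated and 8.38% of all comparable tiles. TGTGGT, the core bound by RUNX factors, stood in 375 tiles, 14.3% (13.0 to 15.7%), against 5.28, 6.09, 5.89 and 5.23% in the same order. Either of these stood in 816 tiles, 31.2%, and both in 69 tiles, 2.64%, against 0.418% of the other methylated tiles. The 2 sequences share no stretch that would let a match of the first count for the second. Within the 3 kinds of place examined the shares were also higher than in other methylated tiles: in introns GAGGAA stood in 20.0% and TGTGGT in 16.5% of the neutrophil-only tiles, against 7.48 and 6.35% of the other methylated tiles, and in intergenic sequence in 18.4 and 14.6%, against 6.90 and 5.33%. At promoters, with 206 neutrophil-only tiles, the shares were 18.4 and 9.22%, against 9.21 and 6.48%.

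The remaining letters gave smaller differences in share. TTGCNNAA, a core of C/EBP sites, stood in 5.16% of neutrophil-only, 5.05% of other methylated and 4.06% of all comparable tiles. TGACTCA, the AP-1 site, stood in 2.07%, against 2.52% of fat-only, 0.996% of other methylated and 1.12% of all comparable tiles. GATAAG, known from erythroid enhancers, stood in 2.60%, against 3.07% of fat-only, 2.12% of other methylated and 2.04% of all comparable tiles, and CAAAGTCCA, an HNF4 site, in 2 tiles, 0.0765%, against 0.637% of hepatocyte-only tiles. The intervals cover the counting of tiles, which are not independent where they touch, and a match says that the letters are in the window and no more.

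**Figure D1:**
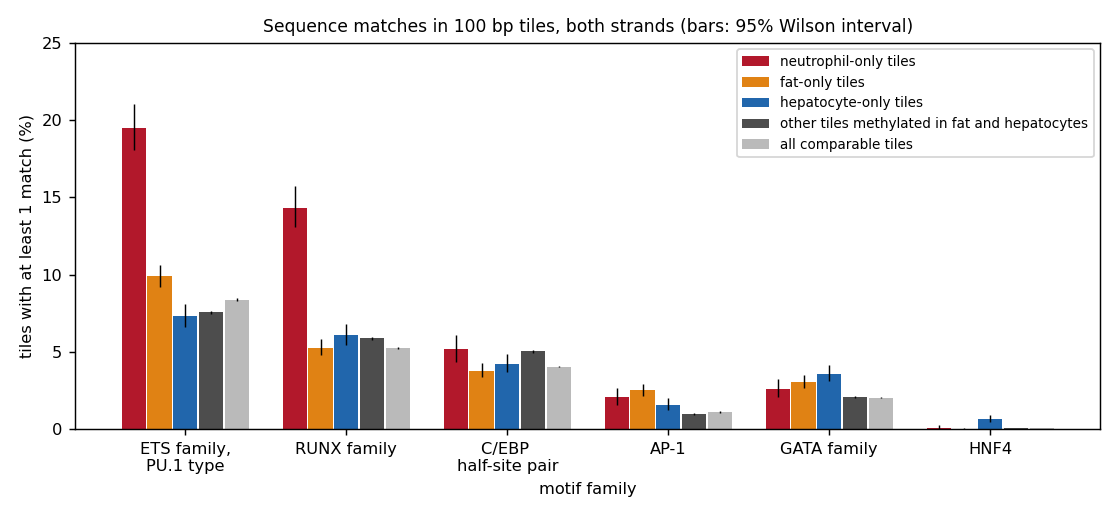
Share of 100 bp tiles (%) that hold each short sequence on either strand, for neutrophil-only, fat-only, hepatocyte-only, other methylated and all comparable tiles; error bars are 95% Wilson intervals. The neutrophil-only bars stand above the other 4 sets for GAGGAA (19.5%) and TGTGGT (14.3%) and beside them for the C/EBP core.

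The tiles fell in or within 1 kb of the body, or in the promoter, of 1084 of 17164 protein-coding genes with a comparable tile, 6.32%. One such tile was held by 681 genes, 2 to 4 by 379 and 5 or more by 24, and 956 tiles lay in no gene. Genes with such a tile had more chances to hold one, with a median of 21 comparable tiles against 10 over all genes. Genes of blood cell function stood well above the share of all genes. Over 6 lists of myeloid and general leukocyte genes, 25 of 69 measured genes held a neutrophil-only tile (36.2%), and 48 of their 979 tiles were neutrophil-only (4.90%, against 0.714% over all genes). Over 4 lists of erythroid, macrophage, adipocyte and hepatocyte markers, 0 of 28 genes and 0 of 215 tiles were. The gene lists were drawn up with earlier results of these data known, and their counts are descriptions.

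Signalling proteins of blood cells held the highest share, with 9 of 16 genes (56.3%). These were the phosphatases Ptpn6 and Inpp5d, the kinase Fgr, the phosphoinositide 3-kinase subunits Pik3cd and Pik3r5, the phospholipase Plcg2, the Rac activator Vav1 and the adaptors Sh2d3c and Dok3. Pan-leukocyte membrane and cytoskeleton genes followed with 5 of 12 (Ptprc, the antigen CD45, Lcp1, Lsp1, Dock2 and Cd37) and myeloid transcription factors with 4 of 10 (Cebpe, Runx1, Myb and Fli1). Granule proteins had 3 of 14 (Mpo, myeloperoxidase, Prtn3, proteinase 3, and Mmp9, gelatinase B), surface receptors 3 of 12 (Itgb2, Itgal and Il1r2) and the NADPH oxidase 1 of 5 (Rac2). T and B lymphocyte markers had 2 of 13 (Cd3d and Cd79b), so low methylation in the neutrophil library was also found at genes of other white cells. No comparable tile was present at Ngp, S100a8, S100a9, Lyz2, Cxcr2, Fpr1, Ly6g, Spi1 or Cybb, among others, where nothing can be said.

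**Figure D2:**
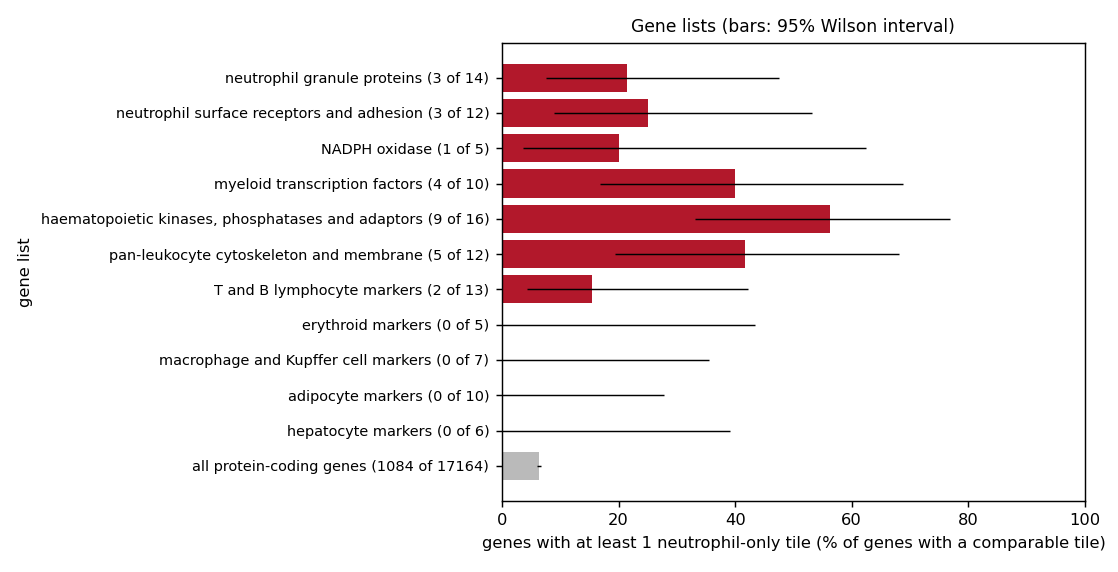
Share of genes (%) of each list that hold at least 1 neutrophil-only tile, out of those with a comparable tile, with 95% Wilson intervals and the share over all protein-coding genes, 6.32%, for reference. The 6 myeloid and leukocyte lists lie between 20.0 and 56.3% with wide intervals. The erythroid, macrophage, adipocyte and hepatocyte lists are at 0, with intervals that include the reference share.

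Promoter values were set beside the label. Hepatocyte markers averaged 90.6% methylation at their promoter tiles in the neutrophil library and 6.52% in controls (3 genes, 9 tiles), and granule protein promoters 27.1% in neutrophils, 33.2% in fat and 44.2% in controls (5 genes, 19 tiles). At both lists the labelled cell type was the lowest. All comparable promoter tiles entered these means, among them neutrophil-only tiles such as the Prtn3 window (2.37% in neutrophils, 68.5% in fat). The order at granule genes is thus a description and no independent check. Promoters of myeloid transcription factors did not follow, with 8.96% in neutrophils, 6.94% in fat and 7.69% in controls, and those of T and B lymphocyte markers were at 23.7, 21.2 and 25.8%. The granule promoters were, however, neither empty of methylation in the neutrophil library nor full in the others.

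At the Cebpe gene 5 of the 6 comparable tiles were neutrophil-only. Neutrophil values were 32.2, 36.3, 3.70, 2.30 and 0% from the end towards the start of the gene, and fat values 91.2, 88.6, 67.7, 100 and 69.2%. Just inside the gene, at chr14:55330901-55331000, the 6 controls lay between 85.0 and 100%, the 3 week samples were both at 100%, DKO injected at 1 day at 79.3 and 92.1%, DKO injected at 3 weeks at 100 and 93.8%, InsR KO both at 100% and culture at 100 and 83.3%. At the window over the start, printed above, controls lay between 56.5 and 87.5%, 3 week samples were at 87.9 and 74.2%, DKO injected at 1 day at 73.2 and 77.8%, DKO injected at 3 weeks at 100 and 80%, InsR KO at 81.8 and 82.4% and culture at 90 and 86.4%. All 16 hepatocyte samples stood far above the neutrophil library at both windows, with no group apart from the rest. The rule had chosen the low neutrophil value and the high mean of the 6 controls, so this is a description. At the start window WGBS gave 86.9% for newborn, 89.6% for adult and 88.9% for DKO hepatocytes.

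The granule and adhesion genes showed the same picture with less even controls. Mpo held a window at chr11:87614601-87614700 with 13.0% in neutrophils, 93.5% in fat and 89.7 to 93.7% in the 6 controls. The 10 hepatocyte samples outside the rule lay at 85.7 to 96.8% there. This Mpo window lay inside the gene, more than 1000 bp before the nearest protein-coding start. Its promoter annotation came from the start of another transcript, so it is not the promoter of a coding Mpo transcript. Prtn3 at chr10:79344601-79344700 had 2.37% in neutrophils, 68.5% in fat, 77.4 to 98.0% in controls and 61.4 to 100% in the 10 others, with WGBS at 69.6% in newborn and 90.7% in adult hepatocytes. The Itgal promoter window had 0% in neutrophils, 68.6% in fat, 83.1 to 97.4% in controls and 66.4 to 95.1% in the others. The 10 hepatocyte samples outside the rule all lay above the neutrophil library at these windows, whose low neutrophil value the rule had chosen. An exonic Mpo window at chr11:87610901-87611000 was less uniform, with 1.04% in neutrophils, 48.2 to 71.4% in controls and 79.5 and 26.7% in the 2 cultures.

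Several signalling and pan-leukocyte genes had windows at 0% in neutrophils. Both Ptpn6 promoter windows were at 0% in neutrophils, at 52.8 and 59.5% in fat and at 87.0 to 100% in the controls, with 83.3 to 100% in the other hepatocytes. All 5 Dock2 windows were at 0% in neutrophils, and at the promoter window fat was at 100%, controls at 62.5 to 97.7% and the other hepatocytes at 76.6 to 100%. Intermediate hepatocyte values marked Ptprc, where the 2 neighbouring intronic windows from chr1:140033001 and chr1:140033101 had 0% in neutrophils but 51.7 to 76.8% and 41.0 to 95.2% in controls and 57.4 to 85.5% and 22.2 to 74.3% in the other hepatocytes. At the Rac2 window controls ran from 20.0 to 100% and the 2 DKO samples injected at 1 day were at 83.3 and 5.88%, so this tile met the rule on a mean of widely spread samples. The read depth behind each tile is unknown, since the deposited values are fractions only.

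**Figure D3:**
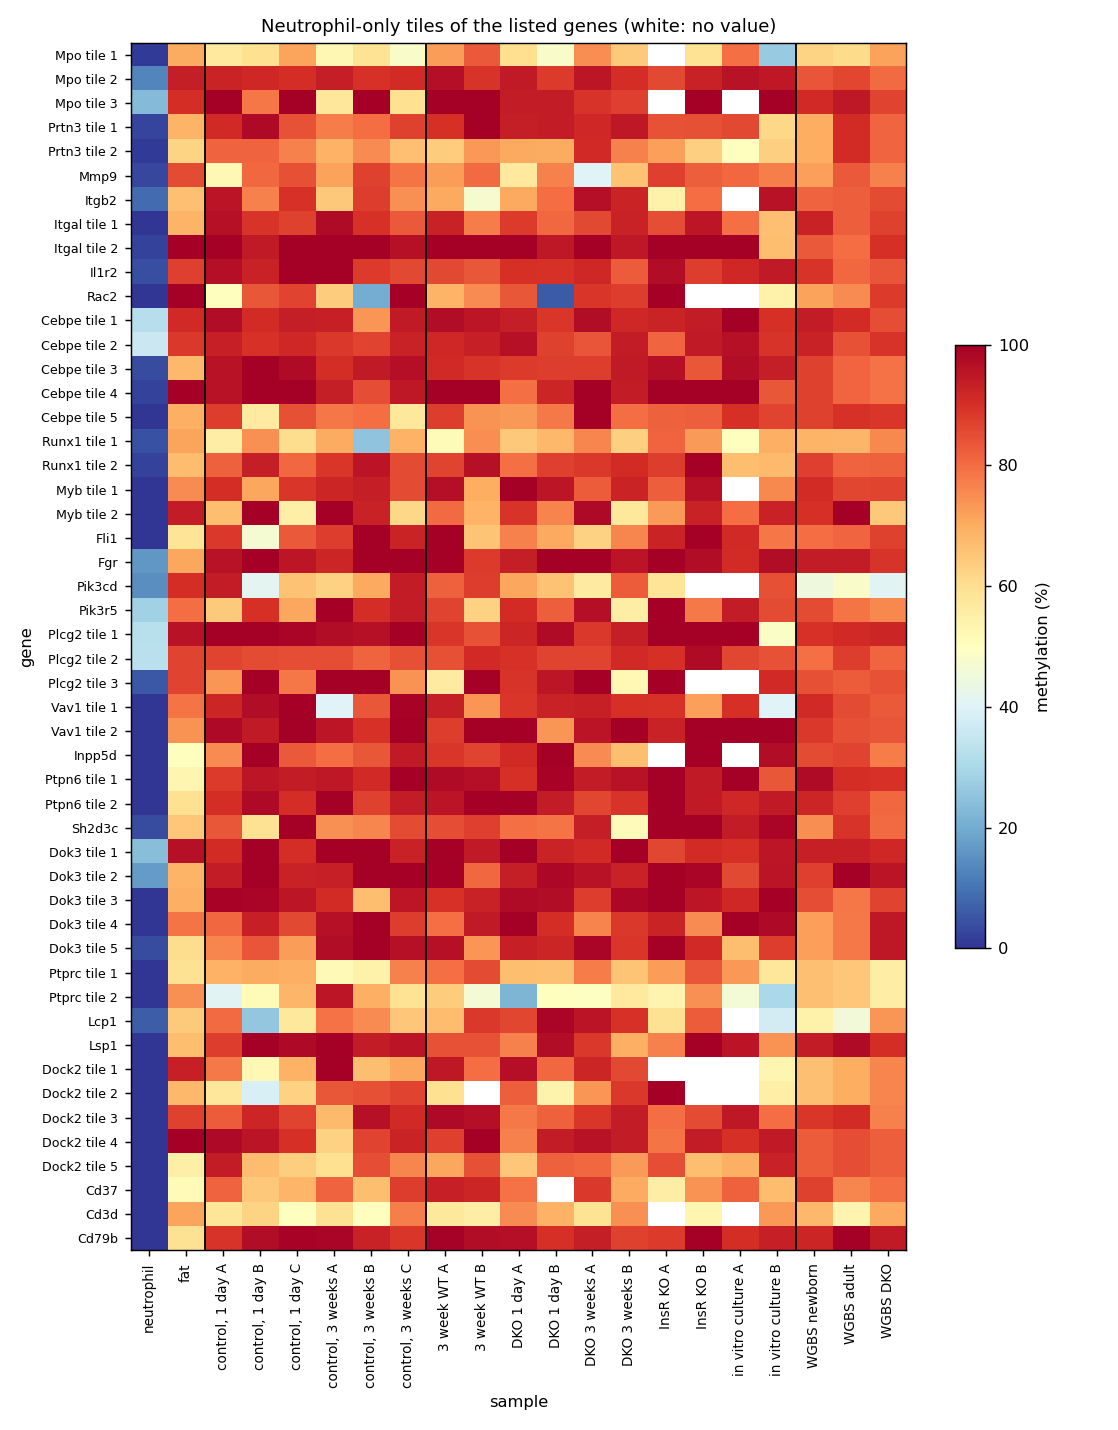
Methylation (%, colour) of 50 neutrophil-only tiles at genes of the lists, 1 tile per line, in the neutrophil, fat and 16 hepatocyte RRBS samples and the 3 WGBS libraries; white means no value. The neutrophil column is low throughout, as the rule required, and most hepatocyte values are high in every condition. Paler lines include Ptprc, Lcp1, Rac2, Cd3d, Pik3cd, the first Runx1 tile and the coding exon tile of Mpo.

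The tiles with the widest gap inside genes were not at genes named for blood cells in general. The tile in an intron of Ppp2cb, a catalytic subunit of phosphatase 2A, at chr8:34728401-34728500 was at 0% in neutrophils and at 100% in fat and in the control mean. Usp5, a deubiquitinase, held a promoter tile at chr6:124767901-124768000 with 0, 100 and 98.0%. The other 8 of the 10 widest were in Rgs3, Frmd4a, Itgal, Heg1, Hsbp1, Prim2, the overlapping pair Vamp1 and Cd27, and Tiam1, all with 0 to 3.05% in neutrophils. The genes with the most tiles were Gm20388, a model of 4435 kb that covers many other genes and held 51 of its 2823 tiles, Gse1 (9 of 130), the Rac activator Tiam1 (9 of 142), Plekhh3 (8 of 34), Fgfr2 (8 of 654), Fam113b (7 of 60), and Rin3, Itsn1, Rgs3, Atp5o, Lrp1 and Fry with 6 each. Of the genes with 5 or more such tiles, Cebpe held the highest share, 5 of 6, followed by Samsn1 with 5 of 9 and Samm50 with 5 of 14.

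Hepatocytes of every condition were highly methylated at these tiles. Over the 1505 tiles with a value in all 16 hepatocyte samples, the controls injected at 1 day averaged 88.3, 87.9 and 87.6% and those injected at 3 weeks 87.5, 87.8 and 87.7%. Wild-type hepatocytes at 3 weeks of age were at 87.2 and 87.2%, DKO injected at 1 day at 89.0 and 89.0%, DKO injected at 3 weeks at 88.1 and 87.9%, and InsR KO at 87.1 and 87.5%. The 2 cultures were lowest, at 85.4 and 84.1%. All in vivo samples thus fell within 2 points of each other, and 1339 of the 1505 tiles (89.0%) were at 50% or above in each of the 10 samples outside the rule. The same held for 87.0% of fat-only and 92.7% of other methylated tiles. In 1496 tiles all 10 samples exceeded the neutrophil value, which the rule had chosen to be low, so this count is a description only.

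Set against the mean of the 6 controls, which the rule used and which is therefore no test, the 3 week mean differed by -0.644 points, DKO injected at 1 day by 1.19, DKO injected at 3 weeks by 0.175, InsR KO by -0.524 and culture by -3.07. The smaller of these depended on the summary: with medians InsR KO differed by 0.0453 and DKO injected at 1 day by 0.474, and over all tiles with a value DKO injected at 3 weeks differed by -0.216. Cultured cells differed most. Their mean was 84.8% ± 0.947 (SD, n = 2), which was 3.12 points below the 8 in vivo samples outside the rule (mean 87.9%, range 87.1 to 89.0%; exact permutation p = 0.0222, two-sided, the smallest that 2 against 8 samples allow). With either culture left out the difference was -2.45 or -3.79 points with an exact p of 0.111, again the smallest possible. The difference was -0.932 points at the other methylated tiles (exact p = 0.111) and -4.04 points at fat-only tiles (exact p = 0.0222), and the fall at neutrophil-only tiles exceeded that at other methylated tiles by 2.18 points (exact p = 0.0222). That excess, as a signed difference of -2.18, became -0.746 without the second culture and -3.62 without the first, and with medians it was -1.46 with an exact p of 0.0889. Against fat-only tiles the signed difference was 0.919 points (exact p = 0.178), and it turned to -0.494 without the first culture. The in vivo samples carry separate animal numbers, whereas nothing says whether the cultures came from separate animals, so their spread may be technical. The in vivo group pooled 3 week wild-type, both DKO groups and InsR KO, which the permutation treats as alike. The cultures started from newborn cells, younger than the in vivo samples, so starting age and culture cannot be told apart. The cultures were not sorted, and the part of other cell types in this fall was not tested.

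The groups with 2 samples each were compared in 10 pairs, where the smallest possible exact p is 0.333 and the smallest adjusted value 0.370, so that no pair could pass. The differences were 1.83 points for DKO injected at 1 day minus 3 week hepatocytes, 0.819 for DKO injected at 3 weeks minus 3 week hepatocytes and 0.120 for InsR KO minus 3 week hepatocytes. DKO injected at 1 day also exceeded InsR KO, by 1.71 points, and DKO injected at 3 weeks, by 1.01. The DKO samples were compared with controls on tiles chosen again without the controls tested. At 2569 tiles chosen with the controls injected at 3 weeks, DKO injected at 1 day averaged 89.0% ± 0.108 (SD, n = 2) and its own controls 87.8% ± 0.296 (SD, n = 3), a difference of 1.23 points with no overlap (exact permutation p = 0.1, the smallest possible), against 0.336 points at other methylated tiles. At 2552 tiles chosen with the controls injected at 1 day, DKO injected at 3 weeks averaged 87.7% and its controls 87.3%. The difference was 0.372 points (exact p = 0.1), against 0.423 at other methylated tiles. Fat-only tiles were compared only where all controls had entered the rule, as a description. There DKO injected at 1 day exceeded its controls by 1.07 points at fat-only and 1.06 at neutrophil-only tiles, against 0.298 at other methylated tiles. After injection at 3 weeks these differences were -0.00498, 0.302 and 0.340 points in the same order. The rise after injection at 1 day was thus not particular to neutrophil-only tiles.

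**Figure D4:**
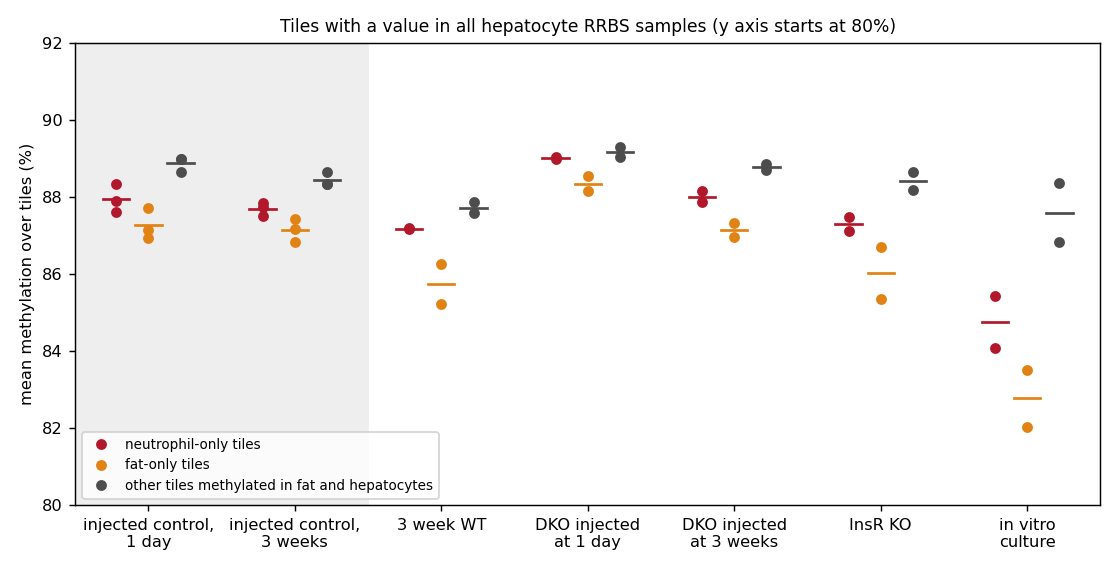
Mean methylation (%) per hepatocyte RRBS sample over the tiles with a value in all 16 samples, for neutrophil-only, fat-only and other methylated tiles; points are samples, lines are group means, the shaded groups entered the rule, and the y axis starts at 80%. In vivo samples lie between 87.1 and 89.0% at neutrophil-only tiles and the 2 cultures at 85.4 and 84.1%.

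Newborn, adult and DKO hepatocytes had near equal means by WGBS. Over 2609 of the tiles methylation averaged 83.2% in newborn, 83.6% in adult and 83.6% in DKO cells, with medians of 86.5, 86.3 and 85.9%. WGBS values belong to 200 bp tiles, so adjacent neutrophil-only tiles can share 1 value. With 1 library per condition there was no test, and a tile was counted as different from 35 points on. Newborn was lower than adult in 17 of 2610 tiles, 0.651%, against 0.196% of all comparable tiles, 0.179% of fat-only and 0.0991% of other methylated tiles. Newborn was higher in 5 tiles, 0.192%, against 1.02% of all comparable tiles, a share that the rule limits because the controls had to be high. Among sets that were also high in the controls, it was 0.202% of other methylated and 0.328% of fat-only tiles. DKO was lower than adult in 2 tiles, 0.0766%, against 0.044% of all, and higher in 10 tiles, 0.383%, against 1.57%. The rule limits this last share in the same way, and DKO was higher in 0.240% of other methylated and 0.343% of fat-only tiles.

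The 17 tiles lower in newborn formed 15 regions. They averaged 36.1% in newborn, 80.4% in adult and 80.1% in DKO cells by WGBS, and these values chose them. The RRBS controls, which entered the rule, averaged 75.9 to 83.6%. RRBS samples that chose nothing averaged 66.1 and 71.9% at 3 weeks (15 tiles with a value), 83.2% in DKO injected at 1 day, 76.9 and 83.6% in DKO injected at 3 weeks, 75.5% in InsR KO, and 51.4 and 51.4% in the cultures (13 tiles). The means of newborn and culture were lowest, those at 3 weeks lay between, and the DKO means lay with the adult ones. The 3 week samples carry the numbers of animals whose RNA libraries had the female pattern described below, and all but 1 of the controls those of male-pattern animals, so age and sex cannot be told apart here either.

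Fzd5 held the most pronounced case. Its first coding window, printed above, was at 15.8% in newborn, 73.6% in adult and 83.6% in DKO cells by WGBS. By RRBS it was at 2.47 and 23.2% in the cultures, 37.1 and 47.6% at 3 weeks, 62.4, 43.8, 80.9, 77.7, 51.2 and 94.8% in the controls, 78.5 and 80.6% in DKO injected at 1 day, 89.7 and 78.7% in DKO injected at 3 weeks and 71.4 and 73.5% in InsR KO, against 7.14% in neutrophils. The cultures did not overlap any in vivo sample, and the 3 week samples overlapped only the lowest control. The next window gave 6.48 and 16.7% in the cultures, 32.7 and 48% at 3 weeks and 36.7 to 86.7% in the controls. The culture values thus lay near the neutrophil value, and the 3 week values between culture and most controls.

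Patz1 and Afp, the gene for the fetal serum protein alpha-fetoprotein, behaved alike. The Patz1 promoter window was at 33.7% in newborn, 84.1% in adult and 82.2% in DKO cells by WGBS, and by RRBS at 40.9 and 56.5% in the cultures, 82.2 and 76.6% at 3 weeks, 92.9 to 97.5% in the controls, 93.4 and 92.9% in DKO injected at 1 day, 81.9 and 81.1% in DKO injected at 3 weeks, 84.2 and 82.5% in InsR KO and 0% in neutrophils. The coding window of Afp at chr5:90934001-90934100 was at 35% in newborn, 79.8% in adult and 73.6% in DKO cells, and at 26.7 and 50.0% in the cultures, 50.7 and 61.7% at 3 weeks, 61.5 to 84.1% in the controls, 57.9 and 62.1% in InsR KO and 21.3% in neutrophils. At both genes the cultures were the lowest hepatocyte samples of the RRBS. The others of the 17 lay in Gse1, Zfpm1, Cenpj and Tead3 introns, AI464131 and Ripply3 coding exons, and between genes near Ankrd33, Plekhg3, Rplp1, Chd7 and Oaf. A further tile, in or within 1 kb of Chpf2 and Smarcd3, lay 4006 bp from the nearest protein-coding start, that of Chpf2. Low culture values were not general, and the tile near Rplp1 was at 80 and 95.8% there. Tead3 differed further, with the measured culture at 100% and the RRBS controls at 80.2 to 94.1% where the adult WGBS library gave 63.1%.

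**Figure D5:**
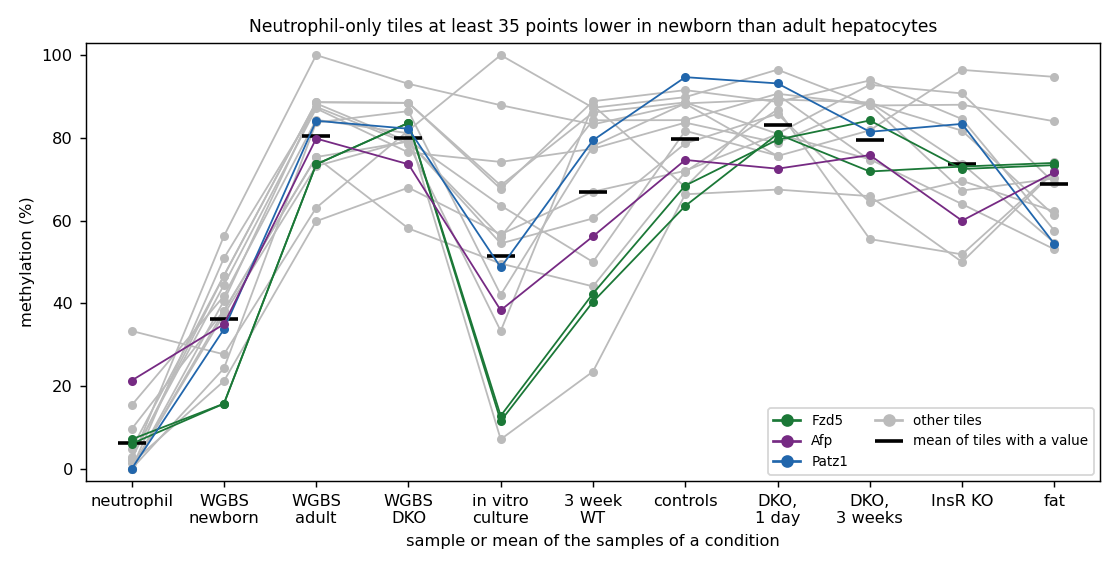
Methylation (%) of the 17 neutrophil-only tiles at least 35 points lower in newborn than in adult WGBS, 1 line per tile across WGBS newborn, adult and DKO and the RRBS groups (group means), with Fzd5, Patz1 and Afp coloured. Newborn and culture values are low (means 36.1 and 51.4%), and the adult and DKO values lie near 80%.

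The 5 tiles higher in newborn were intronic, in Uggt1, Serinc3, C030046I01Rik, Igtp and Mbnl2. Serinc3 was at 90.1% in newborn, 50.4% in adult and 82.6% in DKO cells by WGBS and at 66.3 to 77.0% in the RRBS controls against 91.2 and 94.5% in DKO injected at 1 day. Uggt1 was at 81.3, 38.7 and 88.9% by WGBS, with 58.3 to 74.0% in the RRBS controls and 84.4 to 100% in the 10 samples outside the rule. C030046I01Rik was not borne out by RRBS, where the controls lay at 82.5 to 100% and the adult WGBS value was 27.9%.

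Some tiles were far lower in culture than at 3 weeks. Of 1857 tiles with a value in both samples of either group, 23 were at least 35 points lower in culture than at 3 weeks, 1.24%, against 0.51% of all comparable tiles, 2.39% of fat-only and 0.341% of other methylated tiles, and 9 were higher, 0.485%, against 0.614%. None of the 23 was among the 17 tiles lower in newborn WGBS. An intronic tile of Epb4.1l2, which encodes a membrane cytoskeleton protein, at chr10:25154301-25154400 was at 0 and 2.33% in the cultures, 76.0 and 60% at 3 weeks, 78.3 to 100% in the controls and 92.3% in newborn WGBS, with 9.52% in neutrophils. Introns of Ano7 (40 and 35.6% in culture against 88.7 and 95.7% at 3 weeks) and of the zinc transporter gene Slc39a14 (46.4 and 52.5% against 89.5 and 100%) were low in both cultures, as was a Gdpd5 tile (36.0 and 56.1% against 94.4 and 100%). Other tiles rested on the second culture alone, such as Ttc7 with 91.7 and 25.9%.

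Open chromatin and histone marks of the liver covered few of the tiles. Peaks of ATAC-seq, which cuts accessible DNA, covered 35 and 43 tiles in the 2 wild-type liver libraries (1.34 and 1.64%) and 13 and 36 in the 2 knockout libraries (0.497 and 1.38%). At least 1 library covered 84 tiles, 3.21%, against 1.03% of fat-only, 0.192% of other methylated and 10.2% of all comparable tiles. All 4 covered 5 tiles, at Ptprc, Camkk1, Cep250 and near Gcc1 and Ibtk. The peaks at the 84 tiles were weak, with a median at the percentile 15.2 of all peak scores of their library and none above 49.0. These libraries were labelled liver, while their protocol speaks of hepatocytes.

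H3K4me1, a mark of primed and active enhancers, covered 234 tiles in wild-type hepatocytes (8.95%) and 211 in DKO (8.07%), against 4.16 and 3.40% of other methylated tiles, 8.19 and 6.21% of fat-only, 67.2 and 64.3% of hepatocyte-only and 18.9 and 18.8% of all comparable tiles. H3K27ac, which marks active elements, covered 102 (3.90%) and 178 (6.81%), against 2.27 and 2.745% of other methylated, 4.11 and 5.31% of fat-only and 19.6 and 22.5% of all comparable tiles. Peaks of 5-hydroxymethylcytosine, the first product of TET enzymes, at 20 days of age covered 194 tiles (7.42%), against 4.48% of other methylated, 6.27% of fat-only and 4.66% of all comparable tiles. HNF6, a liver transcription factor, had a peak at 2 and 0 tiles in the wild-type libraries and at 0 and 1 in the knockout libraries. Over these libraries the share was 0.179 to 1.44% of all comparable tiles. The histone and 5-hydroxymethylcytosine data were 1 library per condition, so the differences between wild-type and DKO have no replicate check.

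RNA levels of the genes with a tile were read from the authors' FPKM values in 18 hepatocyte libraries and tested with limma on log2(FPKM + 1), which understates changes of low genes. Of 1013 such genes in the table, 533 reached a mean of 1 FPKM in a condition and were tested (52.6%, against 60.6% of genes with other comparable tiles). From 3 to 15 weeks in wild-type hepatocytes 149 of the 533 rose (28.0%, against 24.0% of all genes tested) and 59 fell (11.1%, against 9.32%), at an adjusted p under 0.05. In DKO injected at 1 day 20 were higher than in controls (3.75%, against 4.33%) and 98 lower (18.4%, against 15.6%). These shares lay within a few points of those of all genes, and the median log2 changes, 0.17 and -0.10, lay beside the 0.15 and -0.11 of all genes. In DKO injected at 3 weeks, 1 gene was higher (0.188%, against 0.905%) and 59 were lower (11.1%, against 4.34%), with a median log2 change of -0.20 against -0.07. The count of 59 lower genes depended on single libraries. It fell to 3 without the second DKO library injected at 3 weeks, to 29 without the first, and to 16, 38 and 39 without 1 of its 3 controls, and a fit on that contrast alone gave 2. The counts for injection at 1 day moved less: the 98 lower genes became 46 without the last control, 52 without the first and 61 without the last DKO library, and the 20 higher genes became 10 to 13 without the first or last control or the first or last DKO library.

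The comparison of ages carried a further limit. Xist, expressed in females, was at 48 to 77.1 FPKM in the 3 week libraries and the Y-linked Ddx3y at 0 to 0.00764, whereas the 15 week libraries had at most 0.0272 FPKM of Xist and 11 to 12.8 FPKM of Ddx3y, so age and sex cannot be told apart there. One control injected at 3 weeks also had the female pattern, with 88.1 FPKM of Xist. The knockout itself could not be checked from whole-gene values, since Tet2 was at 2.82 to 4.08 FPKM in DKO injected at 1 day and at 0.890 to 2.13 in its controls, and the floxed exons are only part of the gene.

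Cebpe was the tested gene where tiles and RNA could best be set side by side. It was at 0.408, 0.236 and 0.268 FPKM at 3 weeks and at 3.77, 6.11 and 5.05 at 15 weeks, at 4.02, 5.78 and 4.46 in controls injected at 1 day and at 0.323, 0.729 and 0.445 in their DKO counterparts. Its log2 change was 2.18 with age (limma adjusted p = 2.61e-06) and -1.94 in DKO injected at 1 day (SE 0.20, limma adjusted p = 2.75e-05), and it was called lower there in 9 of 9 alternatives. In DKO injected at 3 weeks it was at 2.05 and 2.24 FPKM against 4.00, 5.25 and 2.41, a log2 change of -0.59 with a limma adjusted p of 0.121. Its RNA groups at 1 day did not overlap, while its neutrophil-only tiles stayed at 73.2% or above in both DKO samples and at 74.2% or above at 3 weeks at the 2 windows given above.

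With age, 10 genes were named, 5 in each direction. Elovl6, a fatty acid elongase, rose from 0.263, 0.220 and 0.408 FPKM at 3 weeks to 14.7, 17.4 and 15.8 at 15 weeks, a log2 change of 3.71 (SE 0.17, limma adjusted p = 4.28e-09), and was 1.31 higher in DKO injected at 1 day. The desaturase gene Scd2 rose by 2.97, Tiam2, a Rac activator, by 2.26, the collagen gene Col5a3 by 2.25 and the phosphatase gene Lhpp by 2.204. Cux2, a homeobox gene with female-biased liver expression, fell by 3.81 with age, with a log2 change of -2.88 at the carboxylate transporter gene Slc13a3, -2.69 at Sparc, -2.19 at Fkbp5, a co-chaperone of the glucocorticoid receptor, and -1.87 at the carbonic anhydrase gene Car2.

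Lhpp was the most reduced gene in DKO injected at 1 day, at 0.583, 0.659 and 0.585 FPKM against 17.3, 10.5 and 23.6 in controls, a log2 change of -3.43 (SE 0.41, limma adjusted p = 9.67e-05). The log2 change was -2.18 at Slc13a3, -2.03 at Tiam2 and -1.72 at Tbx3, a T-box factor, the last a call lost in 6 of 9 alternatives. Besides Elovl6, the calcium pump gene Atp2b2 was higher by 1.44, Acsl1 by 0.97, Ptpdc1 by 0.95 and Klhdc8b by 0.90, and the Acsl1 call was lost in 5 of 9 alternatives. In DKO injected at 3 weeks the log2 change was -2.13 at Slc13a3, -1.95 at Tiam2, -1.64 at the choline kinase gene Chka, -1.29 at the ubiquitin ligase gene Rnf43 and -1.28 at Nav2, while Mtss1 was higher by 0.67. Of these only the Tiam2 call was kept in 7 of 8 alternatives, and the others were kept in 2 to 4.

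Most blood cell genes with a tile were below 1 FPKM in hepatocytes. Of those on the lists, Lcp1 and Ptpn6 alone were above 1 FPKM in all 18 libraries, and Ptpn6 lay between 3.20 and 6.38 FPKM with no contrast past the threshold. Sh2d3c lay at 0.515 to 1.53 and Dok3 at 0.213 to 1.33 FPKM. Lcp1, the actin bundler L-plastin, rose with age by 1.64 on the log2 scale (limma adjusted p = 5.52e-07) and was 0.41 lower in DKO injected at 1 day (limma adjusted p = 0.0373, a call lost in 6 of 9 alternatives). Its intronic tile was at 6.25% in neutrophils and 25.8 to 80.5% in controls, and its 6 promoter tiles were at 0% in neutrophils and at 10% or below in every other sample with a value, so that none could be neutrophil-only. Mpo and Prtn3 were at 1.74 and 2.737 FPKM in the single library labelled 1 week, and Prtn3 at 5.53 in the second 3 week library. The summed granule protein RNA was 139 FPKM in that 1 week library, 108 on average at 3 weeks and 12.7 at 15 weeks, with Lcn2 at 240 FPKM in the second 3 week library. Residual blood cells and hepatocyte expression of such genes cannot be told apart in these libraries.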

How the data were processed

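RRBS values were the deposited fractions of methylated cytosines per 100 bp tile (913286 tiles, 19 autosomes), which the authors made with BSMAP 2.74 after Trim Galore 0.3.3 on mm9, keeping tiles with a coverage of at least 10 CpGs. WGBS values were deposited fractions per 200 bp tile with a coverage of at least 15. Fractions are printed here as percent, and since the files give no read counts the depth per tile is unknown and no counting interval is given for a methylation value. Columns were given to a group by the group words and animal numbers of their names. Of the 61 RRBS columns 18 were used and of the 24 FPKM columns 18, and 49 columns of both tables were not used. Between 340235 and 611985 tiles per RRBS column had a value, the fewest in the first culture. Samples of a group are called first, second or last in the order of the table.

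The authors computed FPKM with TopHat2 and Cufflinks. FPKM values were tested with limma 3.58.1 in R 4.3.3 on log2(FPKM + 1), over the 11166 of 24397 genes whose condition mean reached 1 FPKM at least once, in 1 fit of 18 libraries with Benjamini-Hochberg adjustment at 0.05, and the script was tested on simulated data. Peak files held deposited peak scores and normalised tag counts (signal) per library, called by the authors with HOMER after trimming with cutadapt 1.15 and alignment with Bowtie2 2.2.4. A tile was covered if a peak overlapped it by at least 1 base. Methylation means were compared over samples with two-sided exact permutation tests in Python 3.11.15 (SciPy 1.17.1, pandas 2.3.3, numpy 2.4.6), and shares of tiles were given 95% Wilson intervals. Tiles, gene bodies with a flank of 1 kb and promoters were annotated with the mm9 gene models.

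The members and the gene lists were chosen with earlier results of these data known. Named genes were the listed genes with a tile, the 10 widest tiles in genes, the 10 genes with most tiles including ties, and, per expression contrast, up to 5 genes per direction with the largest change past the threshold and no overlap between libraries. Genes or tiles named beyond these were chosen after their values were seen. Columns of the authors' own comparisons were not used. The alternatives tried were limits of 40 and 60 points, medians in place of means, all tiles with a value, stricter peaks, larger overlaps, other pseudocounts and filters, a fit per contrast and leaving out each sample.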

Additional observations from a re-analysis of the deposited data

How the results depend on the processing

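The rule gave 4118 tiles at a limit of 40 points and 1503 at 60, and 2625 to 2797 when a control was left out. Culture stayed lower than the in vivo samples when a sample was left out (-3.79 to -2.45 points). The excess of its fall over other methylated tiles was -1.46 points with medians (exact permutation p = 0.0889) and -3.62 to -0.746 with a sample left out. Against fat-only tiles it ran from -0.494 without the first culture (exact p = 0.444) to 2.33. DKO injected at 1 day exceeded controls by 1.48 points at the 40 point limit, 0.822 at 60 and 0.474 with medians, and by 1.06 to 1.33 on the tiles chosen apart when a sample was left out, where DKO injected at 3 weeks gave 0.267 to 0.440. InsR KO minus controls was 0.0453 with medians and -0.879 over all tiles with a value, and DKO injected at 3 weeks minus controls -0.216 over all tiles. InsR KO minus DKO injected at 3 weeks was 0.135 with medians. InsR KO minus 3 week hepatocytes was -0.107 over all tiles and -0.0699 to 0.309 with a sample left out, below 0 without the second InsR KO. The cause of these shifts was not tested. Only 133 of 13665 genes held a tile in the promoter.

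With peaks of at least the median score the shares were 5.05% for H3K4me1 in wild-type and 4.97% in DKO, 2.07 and 3.98% for H3K27ac, 2.98% for 5-hydroxymethylcytosine and 0 for HNF6 and for all 4 ATAC-seq libraries. With at least 50 bases of overlap the ATAC-seq shares were 0.803 and 1.19% in wild-type and 0.841% in the second knockout library, and H3K27ac in wild-type covered 4.88% at the 40 point limit. Without the expression filter 137 genes were lower at 15 weeks, and in DKO injected at 3 weeks 0 were higher and 31 lower. The fit on that contrast alone gave 0 and 2. With a library left out, 109 to 153 genes were higher and 45 to 76 lower at 15 weeks, 10 to 18 and 46 to 90 in DKO injected at 1 day, and 0 to 3 and 3 to 39 in DKO injected at 3 weeks, where a lone DKO library is assumed to vary like the other groups. Over 607 alternatives of 73 results, 509 kept direction and side of the threshold or stayed within the spread.

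No paired analysis was possible because the table columns carry no replicate numbers of the labels, so the fit with a replicate block was not run. The table holds autosomes only, so leaving out the sex chromosomes changed nothing. Neutrophils and fat were 1 library each, so the rule itself has no replicate check, and unknown depth limits every single tile.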
